A study of Homo sapiens with 4 samples.

Results

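Among the 2063 regions in which H3K4me3 was reduced by 2.5 μM Tat-SID, 253 (12.3%, 95% confidence interval 10.9 to 13.8) lay over transcript starts inside protein-coding genes, away from the annotated start of any such gene. These regions were chosen by the deposited list of reduced regions itself: each contained the transcription start site (TSS) of at least 1 transcript of a protein-coding gene and had no start of a protein-coding gene record within 3 kb. They belonged to 242 genes on 23 chromosomes and held the TSS of 1884 annotated transcripts. Of the other regions, 1500 lay within 3 kb of a gene start, 135 held only TSS of non-coding genes and 175 held no annotated TSS.

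The list came from native ChIP-Seq of H3K4me3 in MDA-MB-231, a human triple-negative breast cancer line. There was 1 library each of untreated cells, cells given 1 μM Tat-SID, cells given 2.5 μM Tat-SID and input DNA. Tat-SID is a cell-penetrating peptide that carries the SIN3 interaction domain and competes for the PAH2 domain of SIN3, a scaffold of histone deacetylase complexes. The control was untreated cells rather than cells given a scrambled peptide, and both doses were compared with the same untreated library. The lists hold positions without a read number, fold change or FDR, so they do not show the depth of a library, the identity of the cells could not be checked against markers, and with 1 library per condition no difference between conditions could be tested.

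H3K4me3 is a histone mark laid down around the start sites of transcribed genes, spreading mainly in the direction of transcription. Many genes have several promoters, and the choice between them can change the first exon, the start codon and so the protein made. A gene record begins at its most upstream annotated transcript, which need not be the transcript that most cells use.

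Most of these regions were not alternative promoters by the annotation. The TSS of the principal transcript of the gene, the Ensembl canonical transcript, lay inside 160 of the 253 regions (63.2%, 57.0 to 69.2). The remaining 93 (36.8%) contained alternative TSS only. The regions are therefore described as reduced regions over internal TSS, and the principal and alternative sets are kept apart.

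The sequences just before the TSS are shown for a few of these internal promoters as examples. The 200 bases upstream of the TSS are given for 5 regions that were reduced at both doses and belong to a gene list described below, 3 over an alternative TSS (RUNX1, ETS1 and HDAC9) and 2 over the principal TSS (BACH1 and MSN). Regions of the same kind with over 30 exonic bases in the stretch are not shown. The sequences are written in the direction of transcription on GRCh37. Capitals mark a TATA box (TATAAA), GC box (GGGCGG), E-box (CACGTG), AP-1 site (TGANTCA) or CCAAT box (CCAAT) on either strand.
RUNX1 (RUNX1-202, chr21:36260988-36261187, minus strand): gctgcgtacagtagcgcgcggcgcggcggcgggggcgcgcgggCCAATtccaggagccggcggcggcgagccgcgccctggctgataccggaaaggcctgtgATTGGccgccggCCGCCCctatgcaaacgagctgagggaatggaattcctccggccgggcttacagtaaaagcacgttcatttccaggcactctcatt
ETS1 (ETS1-201, chr11:128392206-128392405, minus strand): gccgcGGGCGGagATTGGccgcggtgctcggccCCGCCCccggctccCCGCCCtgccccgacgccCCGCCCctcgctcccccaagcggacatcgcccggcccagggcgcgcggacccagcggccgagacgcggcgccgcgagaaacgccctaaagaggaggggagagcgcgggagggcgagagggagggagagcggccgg
HDAC9 (HDAC9-218, chr7:18548696-18548895, plus strand): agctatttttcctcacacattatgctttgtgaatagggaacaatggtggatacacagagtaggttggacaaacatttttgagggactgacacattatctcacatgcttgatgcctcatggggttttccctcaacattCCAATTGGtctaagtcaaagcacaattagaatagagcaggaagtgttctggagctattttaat
BACH1 (BACH1-201, chr21:30671043-30671242, plus strand): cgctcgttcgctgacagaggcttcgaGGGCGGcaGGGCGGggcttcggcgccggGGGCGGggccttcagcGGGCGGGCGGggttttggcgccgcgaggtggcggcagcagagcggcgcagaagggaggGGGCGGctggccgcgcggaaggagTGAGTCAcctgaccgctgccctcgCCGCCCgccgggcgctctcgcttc
MSN (MSN-201, chrX:64887321-64887520, plus strand): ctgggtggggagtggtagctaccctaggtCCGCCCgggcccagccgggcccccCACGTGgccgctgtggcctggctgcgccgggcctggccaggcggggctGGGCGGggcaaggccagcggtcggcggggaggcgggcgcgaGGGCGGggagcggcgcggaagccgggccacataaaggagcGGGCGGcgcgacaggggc

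The RUNX1 stretch had a GC content of 67.0% with 25 CpG dinucleotides, and the ETS1 stretch 80.5% with 32. The HDAC9 stretch had a GC content of 39.5% and 0 CpG dinucleotides, and its only capitals are a pair of overlapping CCAAT boxes on opposite strands. BACH1 had a GC content of 77.5%, with 7 GC boxes and 1 AP-1 site in 200 bases. MSN had a GC content of 80.5%, with 4 GC boxes and 1 E-box. Of the stretches shown, only that of HDAC9 was not GC-rich. A motif match describes the letters and does not show that a factor binds there.

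Base composition differed between the principal and the alternative set. Windows of 150 bases on each side of the representative TSS had a median GC content of 66.4% in the 160 principal regions and 49.2% in the 93 alternative regions, against 62.8% at all protein-coding gene starts and 46.8% at all internal TSS groups. An internal TSS group is a set of TSS of 1 gene within 500 bp of each other and over 3 kb from a protein-coding gene start. Its window was placed on its most 5′ TSS, unlike the windows of the principal and alternative sets. A window was counted as CpG-rich when its GC content was over 50% and its ratio of observed to expected CpG was over 0.6. By this measure 79.4% of principal and 37.6% of alternative windows were CpG-rich, beside 59.0% of all gene starts, 80.8% of the gene starts in a region reduced at 2.5 μM and 7.07% of all internal TSS groups. The shares depend on where the window is placed. Over all 253 regions 51.8% were CpG-rich at the TSS nearest the region centre, which was the planned placement. The share was 64.0% at the representative TSS, a choice made after seeing the data, and 54.2% at the most 5′ TSS in the region. The principal and alternative sets were compared at the representative TSS only.

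The GC box, a binding sequence of SP and KLF factors, occurred in 64.4% of principal and 34.4% of alternative windows, in 65.6% of the gene starts in a reduced region and in 12.9% of all internal TSS groups. The AP-1 site occurred in 5.63% of principal and 14.0% of alternative windows, the latter being 13 windows. It was in 8.70% of windows over all 253 regions, beside 8.77% of all internal TSS groups and 5.18% of the gene starts in a reduced region. The CCAAT box varied less, with 29.4% and 39.8% beside 33.2%. TATA boxes were found in 3.75% and 6.45% of windows, below the 18.8% of all internal TSS groups. Gene starts were low too, with 7.61% of those in a reduced region and 9.26% of all of them. At the planned TSS nearest the region centre the share over all 253 regions was 7.51%. Here too the windows of the TSS groups lie on the most 5′ TSS. Over all 253 regions the GC box share was 41.9% at the planned TSS nearest the region centre, 53.4% at the representative TSS and 45.5% at the most 5′ TSS. No test was run on these shares.

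**Figure D1:**
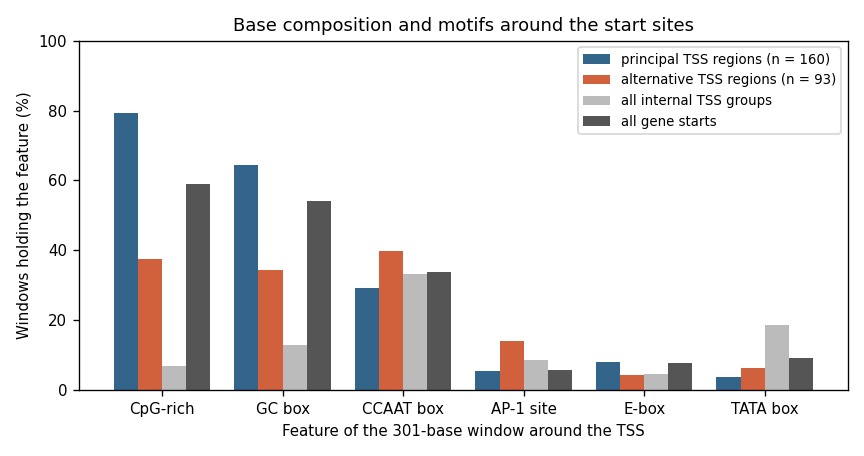
Share of windows, in percent, of 150 bases on each side of a TSS that were CpG-rich or held a motif on either strand, for the principal and alternative sets, all internal TSS groups and all protein-coding gene starts. Windows lie on the representative TSS in the principal and alternative sets, a placement chosen after seeing the data, and on the most 5′ TSS of each internal TSS group. CpG-rich windows made up 79.4% of the principal and 37.6% of the alternative set.

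Across the annotation, 567 of 42124 internal TSS groups (1.35%) and 1853 of 20098 protein-coding gene starts (9.22%) lay in a region reduced at 2.5 μM. Of the 567 groups, 383 lay in the 253 regions described here. Groups that included the principal TSS were in a reduced region in 8.39% of cases (185 of 2204), and groups without it in 0.957% (382 of 39920). A TSS outside the list may have kept its H3K4me3 or may have carried none in untreated cells, and the lists cannot tell these apart.

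The distance from the gene start varied widely, beyond the 3 kb that the rule sets. The representative TSS was a median of 59.1 kb downstream of the gene start, 36.0 kb for the principal set and 134 kb for the alternative set. It lay at least 100 kb from the gene start in 85 of 253 regions. The farthest was in PDE4D, which encodes a cAMP phosphodiesterase known for its many promoters: the region over PDE4D-204 was 1483 kb from the gene start and 854 kb from the principal TSS. RUNX1 followed with 1116 kb and 955 kb for its 2 regions, then NRG1, the gene of the growth factor neuregulin 1, with 909 kb and the transcription factor gene ZFHX3 with 832 kb.

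**Figure D2:**
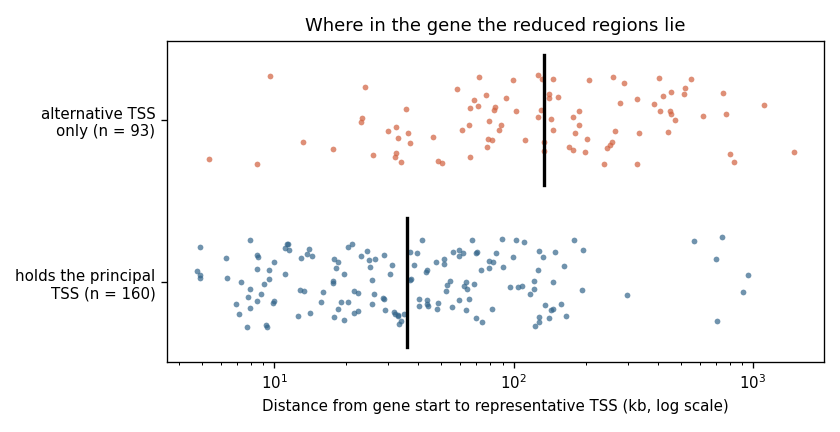
Distance in kb, on a log scale, from the annotated gene start to the representative TSS of each region, with 1 point per region and a vertical line at the median. The median was 36.0 kb for the 160 principal regions and 134 kb for the 93 alternative regions, and the sets overlap widely.

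At the edge of the rule, the regions nearest to a gene start were those of CTNNB1 (3219 bp), the gene of beta-catenin, LARP4 (3346 bp) and ANXA2 (3383 bp). Just outside it were regions over the histone gene H3-3B (2988 bp from the start of UNK), the kinase gene CLK4 (2967 bp) and NDRG1 (2916 bp). All 6 regions held the principal TSS, and the 3 kb limit splits regions that are alike in this respect.

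Region length ranged from 1849 to 15749 bp with a median of 5049 bp, close to the 5149 bp of regions at gene starts and above the 3299 bp of regions with no annotated TSS. From the representative TSS the regions reached a median of 1.38 kb upstream and 3.51 kb downstream. The longest lay over LMNA (15749 bp), the gene of lamin A and C, where 14.8 kb of it was downstream of the TSS. It was followed by RUNX1 (15099 bp), NFIB (14699 bp), NR3C1 (12249 bp) and FOXP1 (11749 bp), all genes of transcription factors, and then by ITGB1, TNIP1, RND3, ANXA2 and MSN. Among the shortest were those over NEK11 (1849 bp), BCL2L13 (1899 bp), BAZ2B (2199 bp) and OXR1 (2349 bp), each over alternative TSS only.

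Some regions took in most of the starts of a gene. The region over ANXA2, which encodes the membrane-binding protein annexin A2, held the TSS of 42 of its 46 transcripts. The regions of CANX, HNRNPH1, CTNNB1 and NONO held 42 of 47, 40 of 49, 37 of 56 and 36 of 40. In these genes the region held most of the annotated starts, and the gene record began at a transcript further upstream. At the other end, 37 of the 253 regions rested on 1 transcript, and 2, over INPP4B and MSR1, rested only on transcripts whose start is marked incomplete.

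Reduction at the lower dose was seen for 35 of the 253 regions (13.8%, 9.83 to 18.7), which overlapped 35 of the 141 regions reduced at 1 μM. The share was 82 of 1500 (5.47%, 4.37 to 6.74) for regions at gene starts and 143 of 2063 (6.93%) for the whole list. It was 13 of 135 (9.63%, 5.23 to 15.9) for regions with only non-coding TSS, an interval that overlaps that of the internal set. For regions with no annotated TSS it was 13 of 175 (7.43%, 4.01 to 12.4). Across the annotation, 0.211% of internal TSS groups and 0.488% of gene starts lay in a region reduced at 1 μM. Within the internal set, 18 of 160 principal regions (11.3%) and 17 of 93 alternative regions (18.3%) overlapped the lower-dose list. As for the list as a whole (0 of 2063), 0 of the 253 regions overlapped a region with increased H3K4me3 at 2.5 μM, which comes from the same comparison.

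Overlap with the lower dose went with region length. Of the regions under 4 kb, 0 of 64 over internal TSS and 0 of 295 at gene starts were also in the 1 μM list. The shares were 4 of 107 (3.74%) and 9 of 764 (1.18%) from 4 to 6 kb, and 12 of 49 (24.5%, 13.3 to 38.9) and 31 of 305 (10.2%, 7.01 to 14.1) from 6 to 8 kb. From 8 kb upwards they were 19 of 33 (57.6%, 39.2 to 74.5) and 42 of 136 (30.9%, 23.2 to 39.4). Regions over internal TSS thus had the higher share in each of the 3 classes that held any overlap, and no test of this difference was run. GC content also moved with the overlap: its median over the region was 41.6% in the 35 regions and 44.7% in the other 218. Regions at gene starts showed a like shift, with 42.7% in those that overlapped the 1 μM list and 46.2% in the rest. The part of GC content in the result was not tested.

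**Figure D3:**
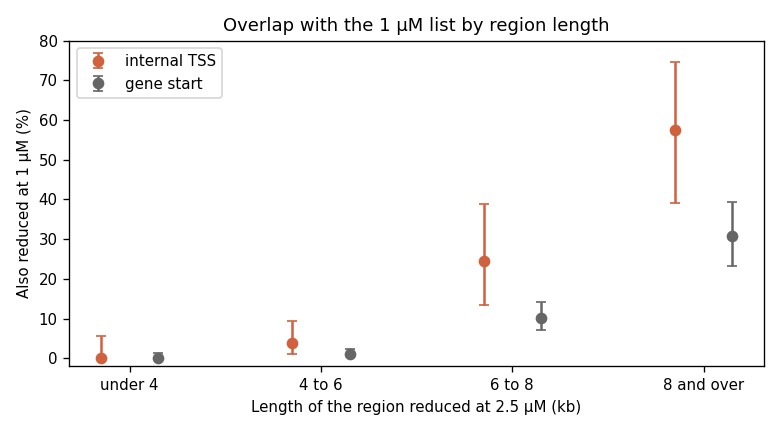
Share of regions reduced at 2.5 μM that overlapped a region reduced at 1 μM, in percent, by length class in kb, for regions over internal TSS and regions at gene starts; bars are exact 95% confidence intervals, which cover counting error only. From 8 kb upwards the shares were 57.6% and 30.9%.

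The lower-dose regions covered most of their partners of the higher dose. The longest of them, at ARHGAP29 (18699 bp), also extended upstream of its partner. Another region reduced at the higher dose lay on that side, 24925 bp from the gene start, where the partner lay 34675 bp from it. The reach beyond the partner therefore does not show a stretch reduced at the lower dose only. The median length of the 1 μM regions was 8649 bp (4399 to 18699), and each covered between 90.9% and 100% of its partner. In 20 of 35 pairs the 1 μM region was the longer, in 8 the shorter, and in 7 they were equal in length. Because the lists have no values, extent does not give the size of the reduction.

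**Figure D4:**
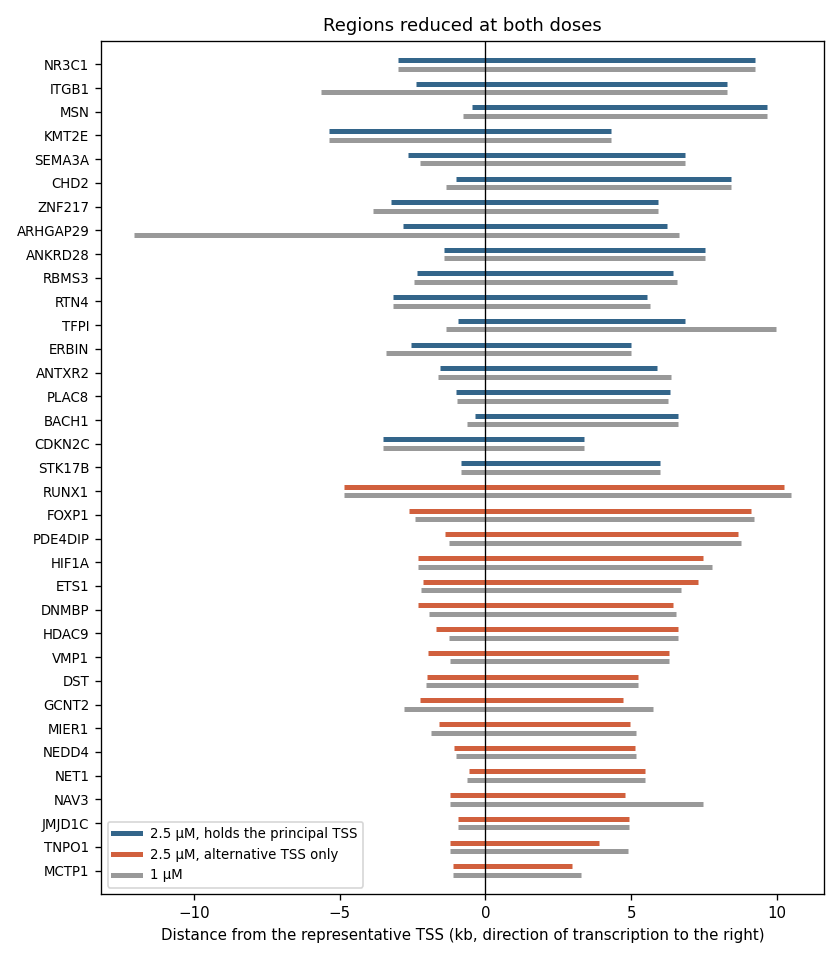
Extent in kb, relative to the representative TSS at 0 with transcription to the right, of the 35 regions reduced at 2.5 μM (coloured by principal or alternative TSS) and of the 1 μM region that overlaps each (grey). The longest of the 35, over RUNX1, was 15099 bp at 2.5 μM.

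Several of the 35 lay over transcription factor and chromatin genes. Of the regions over the principal TSS, that of NR3C1, the glucocorticoid receptor gene, was 12249 bp long at both doses. KMT2E, which encodes a protein of the lysine methyltransferase family, had a region of 9649 bp, and CHD2, a chromatin remodeller, one of 9449 bp. ZNF217, which encodes a zinc finger protein amplified in breast cancers, had 9149 bp, and BACH1, a repressor of haem and oxidative stress genes whose upstream sequence is given above, 6949 bp.

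Other principal regions in both lists lay over genes of varied function. ITGB1, the integrin beta-1 gene, had a region of 10699 bp with the TSS of 30 of its 36 transcripts. MSN, which encodes moesin, a linker of membrane and actin, had 10149 bp, nearly all of it (9.68 kb) downstream of the TSS. ARHGAP29 had 9049 bp, and the guidance factor gene SEMA3A 9499 bp. CDKN2C, the gene of the cell cycle inhibitor p18, had 6899 bp. The remaining principal regions in both lists were those of ANKRD28, ANTXR2, ERBIN, PLAC8, RBMS3, RTN4, STK17B and TFPI.

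Over alternative TSS, RUNX1 had the longest region in both lists. It covered RUNX1-202, in intron 3 of the principal transcript and 161 kb from the principal TSS, which encodes 453 residues where the principal transcript encodes 480. ETS1, another transcription factor gene, had a region of 9449 bp over ETS1-201, 65.2 kb from the principal TSS, with 441 residues in place of 485. HDAC9, a class IIa histone deacetylase gene, had one of 8299 bp over HDAC9-218, 13.5 kb from the principal TSS, with 562 residues in place of 1069. Of these 3, the principal TSS itself was in a reduced region only for RUNX1.

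HIF1A, which encodes the oxygen-regulated transcription factor HIF-1 alpha, had a region of 9799 bp at intron 13. Its TSS lay 50.1 kb into a gene of 52747 bp, and the region ran past the downstream end of the gene. This region rested on 1 transcript, HIF1A-209, which is not annotated as coding. It also held the start of the antisense gene HIF1A-AS3. VMP1, an autophagy gene, had one of 8249 bp at intron 10, 130 kb from the principal TSS, of which the 1 μM region covered 90.9%. That region contained MIR21, the gene of an oncogenic microRNA, whose mature form is given with its seed in capitals, from RefSeq (GRCh38.p14).
hsa-miR-21-5p: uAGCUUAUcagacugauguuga

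In VMP1 the record of the microRNA gene begins in the same region as transcript starts of the host gene. The start of that record was not taken as a TSS of the microRNA, and a reduced region does not say which transcript the H3K4me3 belonged to. The other alternative regions in both lists lay in DNMBP, DST, FOXP1, GCNT2, JMJD1C, MCTP1, MIER1, NAV3, NEDD4, NET1, PDE4DIP and TNPO1. The NEDD4 region, over a ubiquitin ligase gene, was unlike most in that NEDD4-208 encodes 1319 residues and the principal transcript 900.

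For the 93 alternative regions, the TSS lay in an intron of the principal transcript in 84, in an exon in 5 and upstream of it in 4. Intron 1 held 15, intron 2 held 17, intron 3 held 14, intron 4 held 9, and introns from the fifth on held 29. The principal TSS of the same gene was in a reduced region for 23 (24.7%, 16.4 to 34.8), and for 69 it was over 3 kb from one. The gene start was within 3 kb of a reduced region for 16 of the 93 (17.2%, 10.2 to 26.4) and for 16 of the 160 principal regions (10.0%, 5.82 to 15.7). Of all protein-coding gene starts, 9.22% lay inside a region reduced at 2.5 μM, close to the share of the principal set. The share of all gene starts within 3 kb of a region was not computed, nor was that of all principal TSS inside one.

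The annotation gives a different protein for most alternative starts. A coding transcript complete at both ends started in 65 of the 93 regions. Its protein was shorter than that of the principal transcript in 57, equal in length in 5 and longer in 3, with a median difference of -175 residues. In 36 regions the start codon lay downstream of the principal one and outside the coding sequence of the principal transcript. In 21 it lay within a coding exon of the principal transcript, in frame, and in 8 it was the same start codon. These are properties of the annotated transcripts, and RNA from them was not measured in these files.

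More than 1 such region was found in 10 genes, 21 regions in all. MACF1 had 3 and the other 9 genes had 2. In RUNX1 both classical promoters were covered: the region over RUNX1-218, the principal and distal start, was 4949 bp long and only in the 2.5 μM list, and the region over the proximal RUNX1-202 was 15099 bp long and in both. JMJD1C, a gene of the jumonji family, showed the same arrangement, with 4799 bp over the principal TSS and 5849 bp, in both lists, 197 kb further on. In GCNT2, a glycosyltransferase gene, the region over the principal TSS (4449 bp) and that over GCNT2-203 (6949 bp, in both lists) were 7.01 kb apart by their TSS.

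FOXP1, a forkhead factor gene, had regions over FOXP1-218 (11749 bp, 576 residues, in both lists) and FOXP1-209 (5099 bp, 490 residues), where the principal transcript encodes 677. DST, the gene of the cytoskeletal linker dystonin, had 7249 bp over DST-204, in both lists, and 7549 bp over DST-240. In each of these 5 genes the 1 μM list held 1 of the 2 regions. All 5 lay over an alternative TSS, as did 15 of the 21 regions, and in FOXP1 and DST neither region held the principal TSS. FAM13A, FRMD6, DLC1, OXR1 and MACF1 had regions in the 2.5 μM list only.

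**Figure D5:**
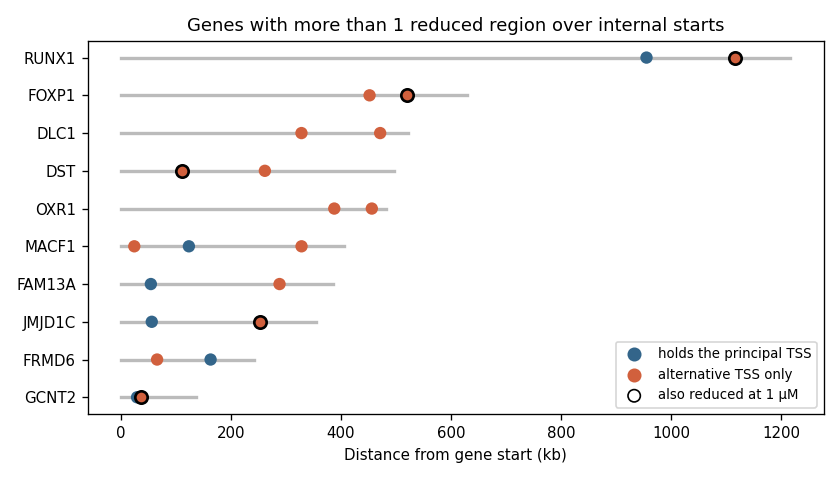
Position in kb from the gene start of each reduced region in the 10 genes with more than 1 region over internal TSS (grey line, the gene; points, the representative TSS; black outline, also reduced at 1 μM). Of the 21 regions, 15 lie over alternative TSS only, among them the 5 with an outline.

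Gene lists chosen with earlier results of these data known were counted by gene. Among 12164 protein-coding genes with an internal TSS group, 242 (1.99%) had such a region. Of 118 genes known for alternative promoters, 19 (16.1%, 9.98 to 24.0) did, with 25 regions, of which 11 held the principal TSS. They included MBNL1, a splicing regulator, RBFOX2, another, where RBFOX2-210 encodes 380 residues in place of 447, SPTBN1, where SPTBN1-201 encodes 2155 in place of 2364, and BDNF, a neurotrophin gene. LIMCH1 had a region of 3949 bp over the principal TSS and RAPGEF2 one of 3099 bp over alternative TSS. These genes were listed because they have several promoters, so they have more internal TSS to find.

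In the transcription and chromatin list, 12 of 109 genes had a region, and 8 of their 14 regions were also in the 1 μM list, against 35 of all 253. Besides those named above the genes were KLF7, NFE2L2, the oxidative stress regulator NRF2, RARB, a retinoic acid receptor, and SMARCA2, a chromatin remodelling ATPase. The SMARCA2 region lay over SMARCA2-229, in intron 27, which encodes 260 residues where the principal transcript encodes 1590. Gene starts of this list were also often in a region reduced at the higher dose, 28.7% against 9.22% of all protein-coding genes. That share was 28.4% for adhesion and cytoskeleton, 30.8% for signalling, 26.7% for epithelial-mesenchymal transition and stem cells and 13.3% for alternative promoter genes. Whether the lists stand out for internal TSS in particular was not tested, and region length was not taken into account.

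Adhesion and cytoskeleton genes had a region in 9 of 82: BCAR3, CTNNB1, CTNND1, ITGB1, LIMA1, MSN, NEDD9, SVIL and TJP1. The TSS was the principal one in 8 of the 9, the exception being LIMA1, an actin-bundling protein gene, with LIMA1-214. Of kinase, phosphatase and GTPase signalling genes, 7 of 98 (7.14%) had one, among them both ABL kinases. ARHGEF2 and DOCK9 had regions of 8749 and 4599 bp over the principal TSS, and PPP2R5C one of 4349 bp over alternative TSS. The ABL1 region held the principal TSS, 122 kb from the gene start, and the ABL2 region held ABL2-210, 86.6 kb from the principal TSS and with 1167 residues in place of 1182.

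Of genes of epithelial-mesenchymal transition and stem cells, 2 of 43 (4.65%, 0.568 to 15.8) had such a region. They were NOTCH2, a Notch receptor, with 4999 bp, and WWTR1, the gene of the co-activator TAZ, with 6649 bp. Both regions held the principal TSS and neither was in the 1 μM list.

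Long non-coding RNA genes started in 64 of the 253 regions (25.3%, 20.1 to 31.1), in 48 of the 160 principal and 16 of the 93 alternative regions. Examples were MEF2C-AS1, NFIB-AS1, WWTR1-AS1 and ITGB1-DT. For these regions the H3K4me3 of the coding and of the non-coding start cannot be told apart.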

How the data were processed

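Native ChIP-Seq of H3K4me3 of MDA-MB-231 cells was done by the authors, and the deposited files are lists of regions (chromosome, start, end) with no value. Per the submitters' processing notes, reads were checked with FastQC (0.10.0), aligned to hg19 with Bowtie (1.0.0) and processed with MACS2 (2.1.0) and SICER. The paper names SICER-df, which merges neighbouring windows into islands, for the comparison with untreated cells. The direction of each list and its threshold (q of 1e-15) stand in its name. The paper's Results give the same threshold for reduced promoters, and its methods give a less strict FDR for this comparison. The paper's Discussion gives a peptide treatment of 3 days. Read numbers are not part of the lists and the study's table of ChIP quality was not used here, so depth is unknown here.

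Regions were read as BED intervals, printed from 1, and placed on GENCODE release 44 mapped to GRCh37. A gene start was the 5′ end of the gene record. The principal transcript was the Ensembl canonical one, and it gave the representative TSS where the region held it. TSS of 1 gene within 500 bp formed a group. Overlap meant at least 1 bp. Shares carry exact Clopper-Pearson 95% intervals, for counting error only. The members and gene lists were chosen with earlier results of these data known. Named were the members also reduced at 1 μM, the 10 longest and 5 shortest (of which 1 is not reported here), those in the lists, the 5 with most transcripts, the 5 farthest from the gene start, and the 3 on each side of the 3 kb limit. Genes with several regions, INPP4B and MSR1 were named after their values were seen. Classification was tested on simulated data, with 2000 of 2000 regions placed correctly. Python 3.11.15, numpy 2.4.6, pandas 2.3.3, scipy 1.17.1, pysam 0.24.0 and matplotlib 3.10.9 were used.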

Additional observations from a re-analysis of the deposited data

How the results depend on the processing

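Of 62 recomputed values, 55 stayed within 1.5 times the count or within the 95% interval of the value given above, and 7 did not. Some of the 55 could not move. The shortest region over internal TSS was 1849 bp, so a minimum length of 1000 bp removed none of them. The 1 μM regions covered at least 90.9% of their partners, so asking for 50% of the partner changed nothing. The share of reduced regions that lay over internal TSS was 10.5% with gene starts kept 10 kb away and 8.24% with starts of all gene types kept away. The share with the principal TSS was 71.1% with basic transcripts only. The share of internal TSS groups in a region reduced at 2.5 μM was 1.78% with TSS grouped within 100 bp, 2.85% with coding transcripts only and 1.04% with gene starts kept 10 kb away. The median GC content around the TSS nearest the region centre was 56.5%, and 61.8% around the representative TSS, a choice made after seeing the data, as were the removal of incomplete starts and of readthrough transcripts. The alternatives behind these 7 values change which TSS are counted or how they are grouped, by construction. The lists were called at 1 threshold from 1 library per condition, so neither a stricter threshold nor leaving out a library was run. No paired analysis was possible because no condition had a second library.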
